A study of Mus musculus with 6 samples.

Results

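Open chromatin at 10 genes for immune checkpoint receptors and ligands was examined in mouse leukocytes taken from peripheral blood, with ATAC-seq, in which the transposase Tn5 inserts sequencing adapters into accessible DNA. The receptors were Pdcd1, Lag3, Havcr2, Btla and Cd160, the ligands were Cd274, Pdcd1lg2, Cd80 and Cd86, and Vsir was kept apart because it can act as either. A peak belonged to a gene when its summit, the highest point of the read pile, lay in the gene body or within 3 kb of an annotated transcript start in the GENCODE annotation of GRCm39. By this rule 9 of the 10 genes had a peak, with 208 of the 250978 peaks of all libraries and 45 of the 62876 regions into which overlapping peaks were joined. The study asked how the immune system differs during high-altitude de-acclimatization (HADA), when animals are back in normal oxygen after weeks of low-pressure hypoxia in a chamber. There were 3 libraries of control mice, which stayed in normal air, and 3 of HADA mice. Per the study's methods the animals were young adult males of the C57BL/6j strain. The labels give neither the day of sampling nor which mouse gave which library, so p-values measure the spread between these samples, which may be technical in part. Red cells had been lysed and the leukocytes were not sorted, so fewer cells of a type and less open chromatin per cell cannot be told apart.

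Immune checkpoints are receptor and ligand pairs at the cell surface that dampen lymphocytes. Pdcd1 encodes PD-1, an inhibitory receptor of activated T cells, and Cd274 and Pdcd1lg2 encode its ligands PD-L1 and PD-L2. Cd80 and Cd86 encode the B7 molecules of antigen-presenting cells, which activate T cells through Cd28 and restrain them through Ctla4. Lag3 binds MHC class II, Havcr2 encodes Tim-3, a receptor of activated T cells, natural killer cells and myeloid cells, and Btla, abundant on B cells, shares its ligand Tnfrsf14 (HVEM) with Cd160, a receptor of natural killer and cytotoxic T cells. Vsir encodes VISTA, which is abundant on myeloid cells.

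The height of a peak is given as its summit pileup, the whole number of overlapping fragments at the summit, which was solved from the fold and p-value that the peak caller gave. Relative depth, read as the pileup of the genome-wide background, lay between 1.69 and 2.05 for the controls and between 1.99 and 2.34 for HADA, and a peak could be called from a pileup of 7 to 9 upward where the surroundings were at that background. Control 3 had the fewest peaks, 34045 against 41214 to 45799 in the other libraries. Groups were compared with limma on log2 pileups centred on the median of the 23970 regions with a peak in all 6 libraries, called shared regions here, with Benjamini-Hochberg adjustment over all of them. Without centring, pileups over background were higher in HADA by 0.34 on the log2 scale at the median shared region, whereas with centring the median difference was −0.04. The differences below are centred unless stated. Regions are numbered along the chromosome within each gene, and coordinates are of GRCm39.

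Cell type marker genes, which bear on every result from unsorted cells, were examined in the same libraries. Summed over a list, the pileup over background at 12 B cell genes ran from 318.0 to 952.1 for controls and from 2067.8 to 2216.6 for HADA, and 9 of their 10 shared regions were called higher in HADA. At 11 neutrophil genes the controls summed to between 310.2 and 854.1 and the HADA libraries to between 157.3 and 288.5, with 7 of 8 shared regions lower and Camp at 0. At 10 monocyte genes the sums overlapped, at 340.5 to 492.3 and 356.4 to 435.0, while 7 of 9 shared regions were called lower. At 12 T cell genes the controls summed to between 542.9 and 762.1 and the HADA libraries to between 1022.0 and 1153.8, and 6 of 20 shared regions were higher and 1 lower. At 10 natural killer cell genes it was 53.6 to 134.9 and 181.6 to 204.4, with 0 of 5 shared regions called by limma, 1 of 5 at an unadjusted p below 0.05, and Klrk1 at 0. All 12 T cell and all 12 B cell genes and all 10 monocyte genes had a peak in at least 1 library. The sums at 8 dendritic cell genes lay between 278.0 and 417.2 for controls and between 444.1 and 481.6 for HADA, with 3 of 13 shared regions higher, all at Flt3, 4 lower, at Itgax, Batf3 and Clec9a, and Siglech and Cd209a at 0. The sums at 8 erythroid and platelet genes were 83.6 to 98.8 and 162.6 to 195.3, with 2 of 3 shared regions higher and Alas2, Hba-a1, Gp9 and Ppbp at 0. These sums are not centred, and over all protein-coding genes with a peak 50.5% had HADA sums above every control and 5.46% had them below, so the higher sums are read against that share. Over all shared regions 17.9% were called higher and 24.1% lower. The part of these lists in the results below was not tested.

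**Figure D1:**
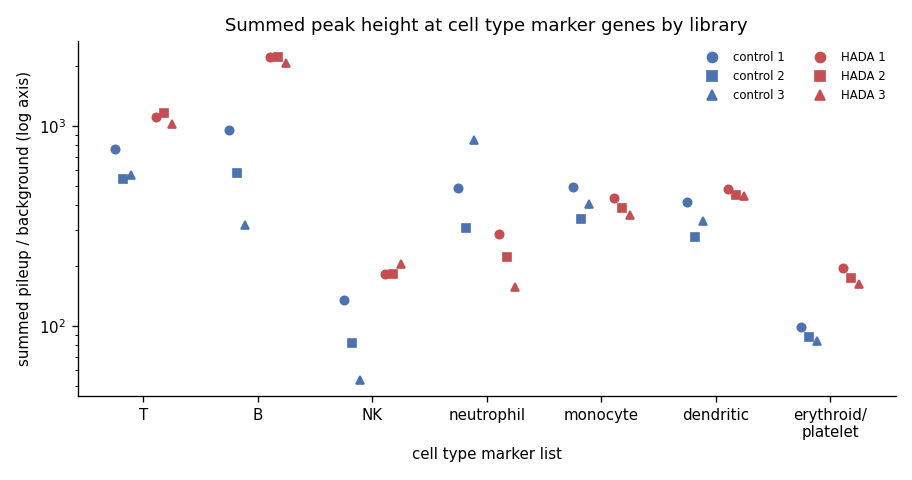
Summed pileup over genome-wide background (log axis) at the genes of 7 cell type marker lists, 1 point per library, control in blue and HADA in red. The B cell sums of all HADA libraries, 2067.8 to 2216.6, lay above those of the controls, 318.0 to 952.1, and the neutrophil sums lay below.

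Of the 45 member regions, 22 were shared by all 6 libraries. In HADA 3 of them were called higher, against 17.9% of all shared regions, and 8 were called lower, against 24.1% of all shared regions, and 11 were not called. The 3 higher regions were at Btla and Pdcd1lg2, and the 8 lower ones were all 4 at Havcr2, 2 at Cd86 and 1 each at Cd80 and Pdcd1lg2. The median log2 difference of the 22 regions was −0.09, beside −0.04 over all shared regions. A peak in 3 of 3 HADA and 0 of 3 control libraries was found at 2 member regions, Pdcd1 region 1 and Cd80 region 4, against 7.01% of all regions, and the opposite at 3, Vsir region 1, Cd86 region 2 and Pdcd1lg2 region 1, against 1.88% of all regions. The remaining 18 regions were present in other combinations of libraries, 9 of them in more HADA and 8 in more control libraries. Without HADA 2 or without HADA 3, 0 member regions were called higher, and 9 and 7 were called lower, where 2.99% and 6.86% of all shared regions were called higher and 8.21% and 15.7% lower. At an unadjusted limma p below 0.05, 3 member regions in each case were higher without these libraries.

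**Figure D2:**
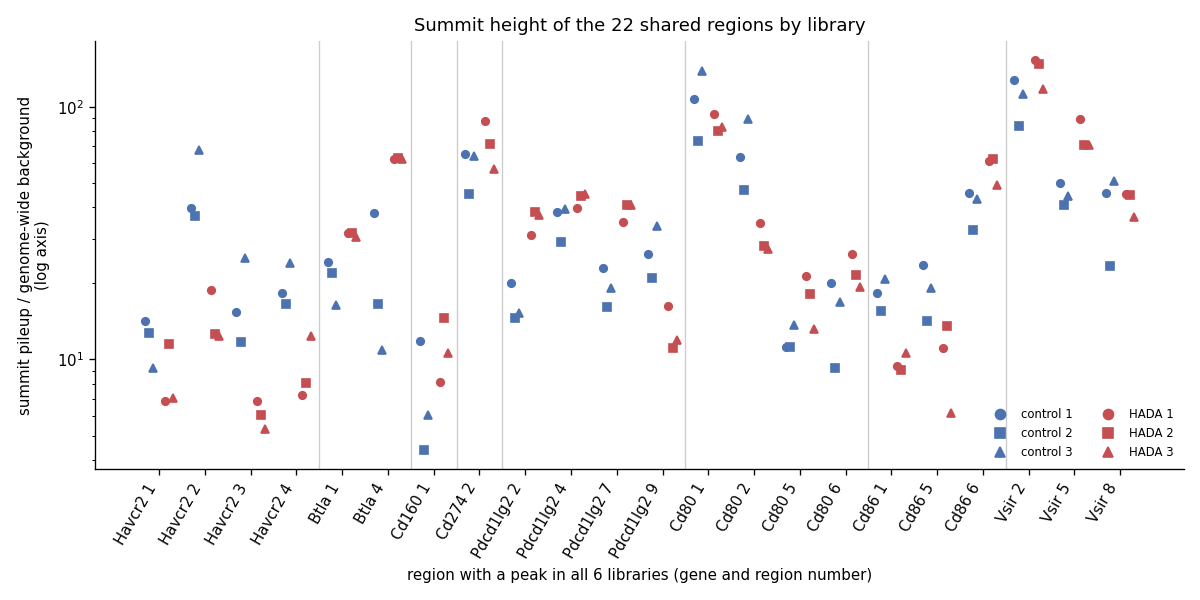
Summit pileup over the genome-wide background of its library (log axis) at each of the 22 shared regions, 1 point per library, control in blue and HADA in red, with grey lines between genes. All HADA points lie below all control points at Havcr2 regions 2, 3 and 4, Cd86 regions 1 and 5, Cd80 region 2 and Pdcd1lg2 region 9. All lie above them at Btla region 4 and Pdcd1lg2 regions 2 and 7. They also lie above them, on this scale without centring, at Btla region 1, Vsir region 5, Cd86 region 6 and Pdcd1lg2 region 4, which were not called.

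The receptors were led by Havcr2, where every region was lower in HADA. At region 2, in an intron 6855 bp downstream of the nearest start, the summit pileup was 67, 76 and 123 in control libraries 1 to 3 and 44, 25 and 28 in HADA libraries 1 to 3. No HADA library reached a control library, and the log2 difference was −2.07 ± 0.31 (SE, adjusted p = 0.00892), 0.238 times the control level, and 1.24% of all shared regions had a lower one. Ordered by pileup over background at this region, the 6 libraries stood as they did by the neutrophil marker sum, control 3 first and HADA 3 last. They did so at region 3 too, but not at region 4, where HADA 3 was the highest of the HADA libraries at 12.3, nor at region 1, where control 3 at 9.29 lay below HADA 2 at 11.6. The part of neutrophils was not tested. Region 3, in an intron 12189 bp from a start, had pileups of 26, 24 and 46 in control and 16, 12 and 12 in HADA, a log2 difference of −1.84 ± 0.30 (adjusted p = 0.00918). Its tallest summits in HADA 2 and HADA 3 lay 655 and 1905 bp from that of control 3, so different points were compared there, and without control 2, whose peak joined them, the region split and had no value. Region 4 (chr11:46371056-46371848), in the 3′ UTR, had 31, 34 and 44 in control and 17, 16 and 28 in HADA, a difference of −1.49 ± 0.29 (adjusted p = 0.0110). At both the groups were apart. At the start, region 1 (chr11:46345286-46346068), with its summit 1 bp upstream, had 24, 26 and 17 in control and 16, 23 and 16 in HADA. These raw pileups overlapped, and the log2 difference of −0.91 ± 0.24 (adjusted p = 0.0222) was no longer called without centring (−0.53, adjusted p = 0.122) or without control 2, HADA 1 or HADA 3. Under the rank of the deposited fold within its library, which sets a summit against its surroundings, none of the 4 Havcr2 regions was called, and all kept a negative sign, with adjusted p of 0.0548 at region 2 and 0.518 at region 1. Over all shared regions, 6.57% were called higher and 4.79% lower under this rank. The signs at Havcr2 were also negative without centring.

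The sequence around the summit of Havcr2 region 2 is shown because it carried the lowest difference of the members, and that of region 3 beside it, on the + strand of GRCm39. Each window is centred on the tallest summit of any library, here that of control 3, and the region 2 summits of HADA 2 and HADA 3 lay 317 and 282 bp away, outside it. Capitals mark a match to the RUNX motif AACCACA on either strand, which 8.89% of member windows and 7.14% of all windows of 201 bp held. Region 2 held no match to any of the 11 motifs searched.
Havcr2 region 2, chr11:46352526-46352726: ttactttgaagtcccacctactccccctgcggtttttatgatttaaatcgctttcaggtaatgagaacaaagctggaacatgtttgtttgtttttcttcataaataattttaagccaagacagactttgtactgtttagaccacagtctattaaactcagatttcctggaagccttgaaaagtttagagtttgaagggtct
Havcr2 region 3, chr11:46357860-46358060: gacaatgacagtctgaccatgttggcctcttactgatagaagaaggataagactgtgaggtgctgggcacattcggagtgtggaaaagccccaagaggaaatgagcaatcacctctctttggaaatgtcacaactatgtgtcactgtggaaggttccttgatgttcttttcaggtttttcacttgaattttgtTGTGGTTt

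At Btla the direction was the opposite. Region 4 (chr16:45072013-45073034), in a 3′ UTR and 1610 bp downstream of an internal start, had pileups of 64, 34 and 20 in control and 146, 125 and 141 in HADA. All HADA libraries lay above all controls, and the controls differed among themselves more than the HADA libraries did. The log2 difference was 1.34 ± 0.33 (adjusted p = 0.0181), the highest of the members, 2.53 times the control level, and 97.9% of all shared regions had a lower one. The controls stood in the same order at this region as by the B cell marker sum, which was 952.1, 582.0 and 318.0 in controls 1 to 3. The natural killer cell sums (134.9, 82.4 and 53.6) and the erythroid and platelet sums (98.8, 87.8 and 83.6) had that order too. The sums of the T cell, neutrophil, monocyte and dendritic cell lists did not. The part of these cells was not tested. The log2 difference ranged from 0.95 to 1.73 when libraries were left out in turn. The call ended without HADA 2 or HADA 3 (adjusted p of at most 0.0611) and under the fold rank (0.23, adjusted p = 0.461). At region 1 (chr16:45043289-45045521) the tallest summit, that of HADA 1, lay 152 bp upstream of the start. The summits of HADA 2 and HADA 3 lay 281 and 528 bp from it. The pileup was 41, 45 and 30 in control and 74, 63 and 69 in HADA. Those raw values did not overlap, but relative to the median region the groups did, and the log2 difference of 0.22 ± 0.17 was not called (adjusted p = 0.326); its sign turned under the fold rank (−0.50, adjusted p = 0.133). The other 3 Btla regions, all intronic, had a peak in every HADA library and in fewer controls. Region 2 was at 27 and 25 in controls 1 and 2 and at 49, 46 and 64 in HADA. Regions 3 and 5 were found among controls in control 1 alone, at 10 and 14, against 18, 16 and 12 and 30, 25 and 35 in HADA. A peak with a pileup of 8 could have been called there in controls 2 and 3 at the genome-wide background.

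Pdcd1, the gene of PD-1, had 1 region, 180 bp downstream of its start in an intron, with pileups of 12, 14 and 14 in the HADA libraries and no peak in any control. A pileup of 7 or 8 would have sufficed for a call in the controls at their genome-wide background, so the HADA peaks were close to the limit of detection. With pileups thinned to the lowest background 2 HADA libraries kept the peak, with a −log10 q of at least 5 1 did, and with lists trimmed by p to the length of the shortest 0 did. Of the 201 bp around the summit, 184 bp outside UTRs are shown because they mark the single PD-1 region in these libraries. No motif match fell in the window.
Pdcd1 region 1, chr1:93980032-93980215: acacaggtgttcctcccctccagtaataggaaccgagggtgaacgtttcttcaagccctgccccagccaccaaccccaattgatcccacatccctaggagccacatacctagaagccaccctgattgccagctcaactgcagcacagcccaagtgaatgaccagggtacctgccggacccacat

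Cd160 had 1 region (chr3:96719906-96722129), in an intron 1410 bp downstream of a start, with pileups of 20, 9 and 11 in control and 19, 29 and 24 in HADA. The summit of control 2 lay 1563 bp from that of HADA 2. Control 1 stood between the HADA values, and the log2 difference of 0.29 ± 0.32 was not called (adjusted p = 0.493). Lag3, whose body spans 7446 bp on chromosome 6, had 0 peaks in all 6 libraries. At the lowest pileups that were called anywhere, 7 to 9, an opening of Lag3 below that height was not detectable at this depth.

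Among the ligands, Pdcd1lg2, the gene of PD-L2, had regions that moved both ways. Region 2, in an intron 3262 bp upstream of an internal start, had pileups of 34, 30 and 28 in control and 73, 76 and 85 in HADA. The groups were far apart, with a log2 difference of 0.72 ± 0.17 (adjusted p = 0.0166), and this was the only region called higher at the members that was also called under the fold rank (1.23, adjusted p = 0.0237). Region 7 (chr19:29431220-29432205), 43448 bp from the 5′ end of the gene, had 39, 33 and 35 in control and 82, 81 and 93 in HADA, a difference of 0.63 ± 0.18 (adjusted p = 0.0247). Both calls ended without HADA 2 and without HADA 3, with adjusted p of up to 0.0695 and 0.0888, and that at region 7 also with pileups thinned to the lowest background, under the fold rank and with a replicate block (adjusted p = 0.0586). Region 9, 51811 bp from the 5′ end, went the other way, with 44, 43 and 62 in control and 38, 22 and 27 in HADA. No HADA library reached a control there, and the difference was −1.42 ± 0.25 (adjusted p = 0.00975; 0.0866 under the fold rank). Region 4, the tallest of the gene with pileups over background of 35.7 ± 5.58 in control and 43.1 ± 2.97 in HADA (SD, n = 3 each), was not called, at −0.10 ± 0.19 (adjusted p = 0.703). Region 1 (chr19:29392011-29392534) was found in the controls alone, at 23, 28 and 41, where a pileup of 20 or 21 was needed in the HADA libraries at the background of their nearest peak. The 50 bases at its summit occur at 2 places in the genome, as do those of region 10. Whether reads there could be placed on 1 copy was not tested. Of the other 5 regions, 3 appeared in more control and 2 in more HADA libraries. All but regions 1, 8, 9 and 10 lay inside the lncRNA gene Gm59311 as well.

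The windows of regions 2 and 9 are shown because they lie in 1 gene and had opposite differences. Capitals mark, in region 9, the ETS motif AGGAAGT and the IRF motif GAAANNGAA, in either orientation. The ETS motif was in 17.8% of member windows and 11.4% of all windows, and the IRF motif in 13.3% and 6.47%.
Pdcd1lg2 region 2, chr19:29396097-29396297: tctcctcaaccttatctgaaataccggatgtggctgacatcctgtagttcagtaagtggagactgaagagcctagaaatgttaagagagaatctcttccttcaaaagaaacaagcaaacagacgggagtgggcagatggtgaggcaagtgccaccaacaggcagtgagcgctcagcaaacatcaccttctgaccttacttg
Pdcd1lg2 region 9, chr19:29440030-29440230: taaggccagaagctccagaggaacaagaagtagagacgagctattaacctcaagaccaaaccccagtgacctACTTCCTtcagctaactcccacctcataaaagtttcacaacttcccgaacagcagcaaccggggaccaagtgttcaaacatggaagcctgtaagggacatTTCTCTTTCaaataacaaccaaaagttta

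**Figure D3:**
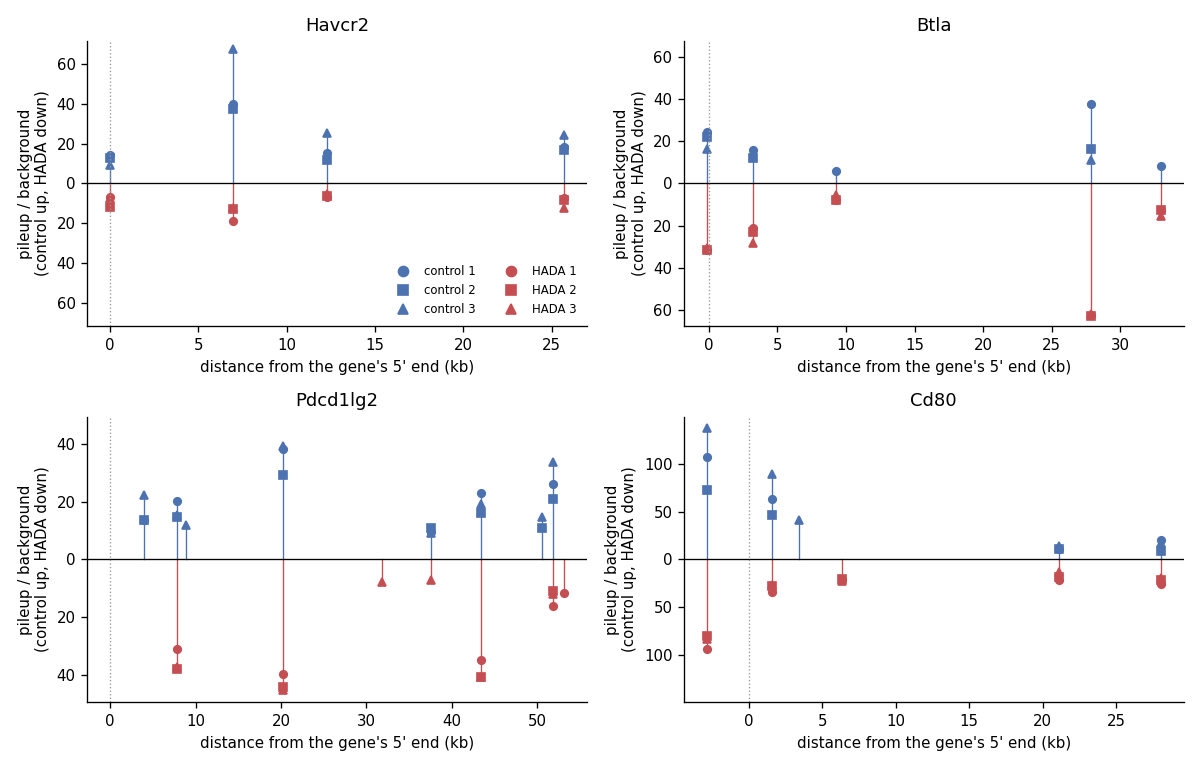
Pileup over genome-wide background at the regions of Havcr2, Btla, Pdcd1lg2 and Cd80, by distance from the 5′ end of the gene in kb, control libraries upward in blue and HADA libraries downward in red, with no point where a library had no peak. Havcr2 regions 2, 3 and 4 are shorter in every HADA library, region 1 overlaps between groups, Btla region 4 is taller, and Pdcd1lg2 holds both kinds.

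Cd80 was lower in HADA near its start. Region 2, 277 bp upstream of an annotated start and 193 bp from that of the lncRNA Gm60172, had pileups of 107, 96 and 164 in control and 81, 56 and 62 in HADA. The groups were apart, and the log2 difference of −1.49 ± 0.27 (adjusted p = 0.00995) was the only call among the members that held under every alternative tried, with −0.82 under the fold rank (adjusted p = 0.0266). Region 1 had 182, 150 and 253 in control and 220, 159 and 189 in HADA and was not called (−0.65 ± 0.25, adjusted p = 0.0708). It was called lower with an intensity trend in limma (adjusted p = 0.0453) and without control 2 (−0.83, adjusted p = 0.0393). The region lay 5 bp from the start of Adprh, an enzyme gene transcribed from there, and its sign turned under the fold rank (0.41, adjusted p = 0.0901). Regions 5 and 6, in introns 17762 and 24696 bp from a start, were not called, at 0.14 and 0.22. Region 3, 68 bp from a start, was found in control 3 alone, at 76. Region 4, in an intron, was found in the HADA libraries alone, at 49, 41 and 51. Its local background was 9.12 to 13.0 there, whereas at the nearest control peak it was 22.9 to 24.9, at which a pileup of 40 to 42 was needed for a call. Region 2 is shown for a call that held under all alternatives run, with the IRF motif in capitals. Its window is centred on the summit of control 3, and the summits of the other 5 libraries lay 168 to 244 bp away, outside it. Region 4 is shown for its presence in 1 group, with the CEBP motif TTGCNNAA in capitals (11.1% of member windows, 8.68% of all windows).
Cd80 region 2, chr16:38277411-38277611: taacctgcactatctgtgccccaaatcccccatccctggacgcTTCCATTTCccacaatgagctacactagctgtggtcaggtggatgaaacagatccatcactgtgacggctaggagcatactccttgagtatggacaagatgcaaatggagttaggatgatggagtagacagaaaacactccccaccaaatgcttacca
Cd80 region 4, chr16:38282181-38282381: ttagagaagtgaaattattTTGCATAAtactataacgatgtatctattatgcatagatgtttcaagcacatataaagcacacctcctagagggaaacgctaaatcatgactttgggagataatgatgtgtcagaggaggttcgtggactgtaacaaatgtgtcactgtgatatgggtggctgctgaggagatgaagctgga

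Cd86 had regions that were lower in HADA inside the gene and none that was called higher. Region 6 (chr16:36485673-36487416), 162 bp downstream of the start, had pileups of 77, 67 and 79 in control and 143, 124 and 111 in HADA, which relative to the median region gave a log2 difference of 0.13 ± 0.18 that was not called (adjusted p = 0.575). Region 1, in an intron 15934 bp from a start, had 31, 32 and 38 in control and 22, 18 and 24 in HADA, a difference of −1.29 ± 0.20 (adjusted p = 0.00903). Region 5 (chr16:36475829-36476614), in an intron 10147 bp from a start, had 40, 29 and 35 in control and 26, 27 and 14 in HADA, a difference of −1.31 ± 0.28 (adjusted p = 0.0127). At both all HADA libraries lay below all controls, and neither was called under the fold rank (adjusted p = 0.342 and 0.147). Region 2 (chr16:36452135-36452805) was found in the controls alone, at 31, 31 and 29, and a pileup of 19 or 20 was needed in the HADA libraries. Region 3 had 57 and 39 in controls 1 and 2, no peak in control 3, and 106, 100 and 105 in HADA. Region 4, 12 bp upstream of an internal start, was found in control 1 and HADA 2 alone, at 9 and 12. The window of region 1 is shown as the Cd86 region with the smallest adjusted p, with the ETS motif in capitals. It is centred on the summit of control 3, and those of control 1 and all HADA libraries lay 113 to 214 bp away, outside it.
Cd86 region 1, chr16:36447133-36447333: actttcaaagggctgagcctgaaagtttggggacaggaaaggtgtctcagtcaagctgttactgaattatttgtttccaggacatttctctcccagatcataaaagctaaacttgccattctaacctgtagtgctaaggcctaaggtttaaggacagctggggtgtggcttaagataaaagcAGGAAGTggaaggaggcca

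Cd274, the gene of PD-L1, did not differ by the test at its start. Region 2 (chr19:29344264-29345135), 141 bp downstream of the Cd274 start and 38 bp from a start of Plgrkt on the other strand, had pileups of 110, 93 and 117 in control and 205, 142 and 129 in HADA. The raw values were apart, but the log2 difference was −0.08 ± 0.21 (adjusted p = 0.787), and it was 0.30 without centring (adjusted p = 0.388). Region 1, 129 bp from another Plgrkt start, was at 42 and 39 in controls 1 and 3 and at 97, 88 and 74 in HADA. Region 3, in an intron, was at 35 and 24 in controls 1 and 2 and at 59, 58 and 37 in HADA. Region 4, in an intron, was found in controls 2 and 3, at 11 and 18, and in 0 HADA libraries. The motif of Nrf2, a factor of the antioxidant response that the study examined, was searched as TGACNNNGC and matched at 2 member regions, Cd274 regions 1 and 4, which is 4.44% of member windows against 8.26% of all windows.

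Vsir, the gene of VISTA, lies within Cdh23, and each of its regions could belong to either. Region 2 (chr10:60182226-60183293), 45 bp from a start in a coding exon, was the tallest of the start regions, with pileups of 216, 172 and 205 in control and 358, 293 and 267 in HADA. Relative to the median region it was level, with a log2 difference of 0.00 ± 0.18 (adjusted p = 0.998). Region 5 (chr10:60187420-60188228), in an intron 2830 bp from a start, had 84, 84 and 81 in control and 210, 140 and 160 in HADA, and its difference of 0.39 ± 0.17 (adjusted p = 0.0959) was called without centring (0.77, adjusted p = 0.0223) and under the fold rank (0.94, adjusted p = 0.0325). Region 8, in the 3′ UTR, was at −0.23 ± 0.28 (adjusted p = 0.528), and turned to 1.05 under the fold rank (adjusted p = 0.0334). Region 1, 2706 bp upstream, was found in the controls alone, at 83, 73 and 94 over a local background of 19.2 to 24.4. The nearest HADA peaks had a local background of 31.8 to 39.5, at which a pileup of 51 to 61 was needed for a call. The remaining 4 regions were found in 1 to 5 libraries. The window of region 1 is shown as the tallest that was present in 1 group, with the PU.1 motif GAGGAAGT, which contains the ETS motif, in capitals (8.89% of member windows, 4.16% of all windows).
Vsir region 1, chr10:60179824-60180024: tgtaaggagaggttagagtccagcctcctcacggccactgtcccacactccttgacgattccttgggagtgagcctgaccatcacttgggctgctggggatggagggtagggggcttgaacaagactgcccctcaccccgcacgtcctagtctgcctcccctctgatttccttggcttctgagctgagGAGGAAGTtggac

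**Figure D4:**
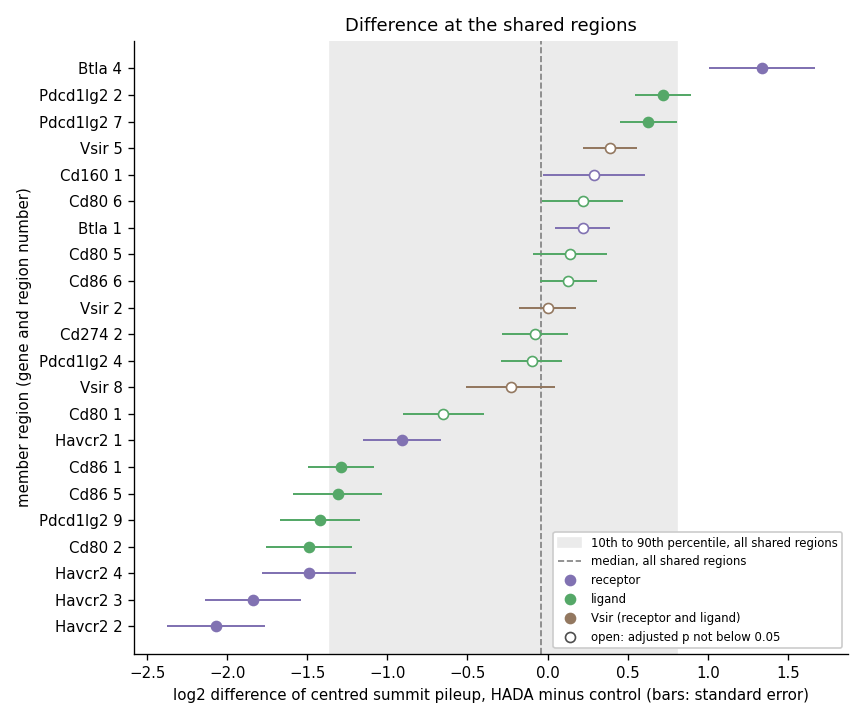
Log2 difference of the centred summit pileup, HADA minus control, with its standard error, at the 22 shared member regions, sorted, with receptors in purple, ligands in green and Vsir in brown. Filled points had an adjusted p below 0.05, the grey band spans the 10th to 90th percentile of all shared regions, −1.36 to 0.81, and the Havcr2 and Btla receptor regions hold both ends.

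Receptors and ligands were set side by side. Of 7 shared receptor regions 1 was higher and 4 were lower, with a median log2 difference of −0.91, and of 12 shared ligand regions 2 were higher and 4 lower, with a median of −0.09. Over all shared regions 17.9% were higher and 24.1% lower, with a median of −0.04. The 4 lower receptor regions all belonged to Havcr2, so these regions are not independent, and the difference between the roles was not tested. Peaks at the 5 receptor genes numbered 10, 9 and 7 in the controls and 12 in every HADA library, and those at the 4 ligand genes numbered 20, 19 and 20 and 17, 18 and 19. The receptor counts were apart and the ligand counts met at 19. The peak numbers of whole libraries were apart too, at 34045 to 41475 for the controls and 44044 to 45799 for HADA. The receptor difference of 3.33 peaks became −0.33 when each list was trimmed by p to the length of the shortest, at 8, 7 and 7 for the controls and 8, 7 and 6 for HADA. Vsir had 6, 6 and 7 peaks in the controls and 6, 3 and 5 in the HADA mice.

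Gene by gene, the exact permutation test of 3 libraries against 3 cannot go below p = 0.1, and no gene could pass 0.05. By number of peaks, HADA was above control in every library at Pdcd1 alone, where 10.6% of 15397 protein-coding genes with a peak had HADA higher and apart and 1.98% had it lower and apart. By summed pileup over background, which is not centred, 50.5% of genes had HADA higher and apart and 5.46% lower and apart. Havcr2 was in the smaller class, at 87.6, 78.1 and 125.7 in control and 39.7, 38.2 and 37.0 in HADA (exact permutation p = 0.1). Btla was in the larger, at 92.3, 50.7 and 27.3 in control and 135.5, 138.2 and 141.4 in HADA (exact permutation p = 0.1), as were Cd160 and Pdcd1. At Cd274, Pdcd1lg2, Cd80, Cd86 and Vsir the libraries of the groups overlapped, with exact permutation p of 0.2 to 0.8.

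**Figure D5:**
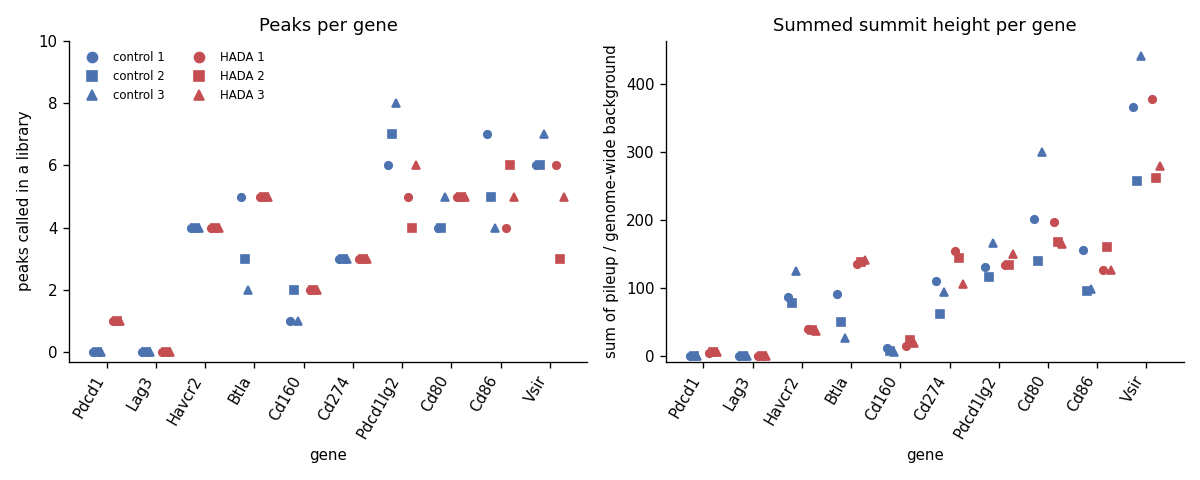
Number of peaks (left) and summed summit pileup over genome-wide background (right) at each of the 10 genes, 1 point per library, control in blue and HADA in red. Lag3 is at 0 throughout, Havcr2 keeps 4 peaks in each library while its sum is lower in every HADA library, and the Btla sum is higher in every HADA library.

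The heights of the shared regions nearest a start can be set against each other, since a summit height does not grow with gene length. Not all of these regions lie at a start. Those of Pdcd1lg2 and Cd160 were in introns, 3262 and 1410 bp from the nearest start. In control libraries the order of mean pileup over background (± SD, n = 3) was Vsir at 107.9 ± 22.2, Cd80 at 66.6 ± 21.6, Cd274 at 58.1 ± 11.1, Cd86 at 40.5 ± 6.85, Btla at 20.9 ± 4.04, Pdcd1lg2 at 16.7 ± 2.99, Havcr2 at 12.1 ± 2.52 and Cd160 at 7.41 ± 3.92. Neighbours in this order overlapped between libraries except Cd86 and Btla, and Pdcd1lg2 and Havcr2. In HADA libraries the order was Vsir at 139.3 ± 19.0, Cd274 at 71.9 ± 15.4, Cd86 at 57.4 ± 7.42, Pdcd1lg2 at 35.6 ± 3.84, Btla at 31.2 ± 0.72, Cd80 at 30.0 ± 4.0, Cd160 at 11.1 ± 3.26 and Havcr2 at 8.48 ± 2.67. There the neighbours that did not overlap were Vsir and Cd274, Cd86 and Pdcd1lg2, and Cd80 and Cd160. Cd80 held rank 2 in control and 6 in HADA, Pdcd1lg2 6 and 4, and Havcr2 7 and 8.

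A further 45 genes of checkpoint biology were examined as 10 other coinhibitory receptors, 9 costimulatory receptors, 19 partner ligands and 7 signalling genes. Of them 42 had a peak, and Tnfrsf4, Fgl1 and Cd70 were at 0. Their 71 shared regions held 12 higher and 14 lower calls, beside the 17.9% and 24.1% of all shared regions, with a median of 0.07. Among coinhibitory receptors 3 of 15 shared regions were higher and 8 lower, with a median of −1.20. Those 8 lay at Cd244a, Lair1, Sirpa and Pilra alone. Among costimulatory receptors 3 of 11 were higher and 1 lower, with a median of 0.18. Among partner ligands 4 of 24 were higher and 3 lower, with a median of 0.09, and among signalling genes 2 of 21 went each way, with a median of −0.14. Among the called regions, 1 per gene, the lowest were at Pilra (−2.18 ± 0.40, adjusted p = 0.0102), an inhibitory receptor of myeloid cells, with pileups of 117, 83 and 217 in control and 68, 36 and 34 in HADA, and Sirpa (−1.70 ± 0.32, adjusted p = 0.0104), the myeloid receptor for Cd47. A region of Cd226, a costimulatory receptor of T and natural killer cells, was at −1.48 ± 0.26, while the other 2 of that gene were not called, at 0.27 and −0.09. At Cd244a, a receptor of natural killer cells, 2 regions were called lower, at −1.43 ± 0.21 and −1.25 ± 0.27, and the third was not called, at 0.40. Among the called regions, the highest were at Cd200, the ligand of an inhibitory receptor of myeloid cells, at 1.38 ± 0.38, Tnfsf18, the ligand of GITR, at 1.38 ± 0.28, Slamf6, a receptor of lymphocytes, at 1.07 ± 0.25, and 1 region of Cd47 at 0.93 ± 0.18, whose other 5 shared regions were not called, at −0.55 to 0.07. Of their 151 regions, 10 had a peak in all HADA and no control libraries, beside 7.01% of all regions, and 0 the reverse, beside 1.88%.

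By the root mean square difference of centred log2 pileups over the 6 libraries, among the start regions of 11609 genes, those most like Pdcd1lg2 region 2 were the shared start region of Cbx6 and Npcd (0.05) and that of Dusp22 (0.05), and those most like Havcr2 region 2 were those of Mctp1 (0.09), Dna2 (0.10) and Bcl2a1a (0.10). Of the other motifs searched within 100 bp of a summit, AP-1 (TGANTCA) was in 6.67% of member and 5.51% of all windows, NF-kB (GGGNNTTCC) in 4.44% and 3.77%, TCF7 (CTTTGAT) in 2.22% and 2.46%, EBF (CCCNNGGGA) in 0 member windows and 4.6% of all, and TBX (AGGTGTGA) in 0 and 0.816%. A single match among the 45 member windows is 2.22%.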

How the data were processed

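Peak lists of ATAC-seq from 6 libraries, 3 control and 3 HADA, were analysed. The submitters' processing notes name Trimmomatic, Bowtie2, Picard and MACS2 and the build GRCm39; the MACS2 options and any shift for Tn5 are not given in the sources used here. By their peak names, the libraries were called separately. The deposited lists give for each peak a score, a fold enrichment of its summit, and the p-value and q-value on a −log10 scale, all made by the authors' peak caller, and the highest q-value was 0.0498. Groups and replicate numbers came from the labels.

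The whole-number summit pileup and the local background of a peak were solved from its deposited fold and p-value, which succeeded for 100% of peaks. This was done because the fold sets a summit against its surroundings, so that its rank can change without a change of height. Depth is known only as the genome-wide background pileup, since total reads were not analysed here, and counting error limits low pileups. Peaks that shared 1 bp were joined into regions, and the tallest summit of a library stood for it. The sequence names were checked against GRCm39, where all 54 were found, and 22.1% of summits fell 100 bp or less from a transcript start, against 2.07% after a shift of 100000 bp. Genes came from GENCODE mouse release 39.

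Shared regions were compared with limma 3.58.1 in R 4.3.3, with an adjusted p below 0.05 as the threshold, and single genes by a two-sided exact permutation test (scipy 1.17.1 in Python 3.11.15). Regions with a peak in 1 group alone were counted without a test. Where a library had no peak, the pileup needed for a call was computed from its lowest called −log10 p-value and the background of its nearest peak within 5 kb, or else its genome-wide background. The code was tested on simulated data. The text covers all members, with values for the region nearest a start, each called region and each region of 1 group. It also names at most 4 further pathway genes each way, and the 3 genes most alike. Sequences are shown for some of the called regions and regions of 1 group, not for every member. Members and lists were chosen with earlier results of these data known. Windows shown as sequence come from the GRCm39 genome and leave out UTR bases. The alternatives tried were 10 other settings and leaving out each of the 6 libraries in turn.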

Additional observations from a re-analysis of the deposited data

How the results depend on the processing

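Of the 11 called member regions, all kept their sign under every alternative that gave them a value. Counting each region under each alternative, 85 comparisons kept the call and 12 lost it, 9 of them under the fold rank, and with a library left out 56 kept it and 9 lost it. Not in these counts are regions that had no value: 8 that are not within 3 kb of a start, Havcr2 regions 1 and 3 and Cd86 region 5 with trimmed lists, Havcr2 region 3 and Cd86 region 5 at −log10 q of at least 5, where not every library kept a peak, and Havcr2 region 3 without control 2, where it split. The cause of these losses was not tested. The count of regions higher in HADA, 3, was 1 of 10 with the summit within 3 kb of a start only, beside 17.9% of all shared regions. It ranged from 0 to 3 with a library left out, beside 2.99% to 19.9%. The count lower in HADA, 8, was 5 of 18 with lists trimmed to equal length, beside 20% of all shared regions. It was 2 of 10 within 3 kb of a start only, beside 24.1%, and 1 of 22 under the fold rank, beside 4.79%. With a library left out it was 7 to 9, beside 8.21% to 24.1%. HADA-only regions, 2, fell to 1 with lists trimmed to equal length, with a −log10 q of at least 5 and with thinning, and were 2 to 4 with a library left out, 4 without control 1. Control-only regions, 3, were 5 with lists trimmed to equal length, 1 within 3 kb of a start only, and 3 to 5 with a library left out, 5 without control 1. The receptor peak difference of 3.33 became −0.33 with lists trimmed to equal length and 1.67 within 3 kb of a start only, and 2.5 to 4.0 with a library left out; the ligand difference of −1.67 became −0.67 at −log10 q of at least 5 and 1.33 within 3 kb of a start only, and −2.17 to −1.17 with a library left out.

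Regions that were not called changed sign as follows. Vsir region 2 was at −0.02 with lists trimmed to equal length, −0.01 with thinning and −0.11 to 0.10 with a library left out. Vsir region 8 was at 1.05 under the fold rank and 0.15 without centring, Cd80 region 1 at 0.41 and Btla region 1 at −0.50 under the fold rank. Cd274 region 2 was at 0.30 without centring and −0.20 to 0.07 with a library left out, Pdcd1lg2 region 4 at 0.28 without centring, Cd80 region 5 at −0.01 to 0.32 and Cd80 region 6 at −0.05 to 0.34 with a library left out.

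Without centring, 4 of the 22 shared member regions were higher and 7 lower, beside 31.9% and 18.6% of all shared regions. Under the fold rank 3 were higher and 1 lower, beside 6.57% and 4.79%. Of the calls over all regions, 63.2% were higher without centring and 57.8% under the fold rank, against 42.7% with centring. Deviations from the group means had correlations of −0.0797, 0.0751 and −0.376 for same-numbered libraries and of −0.474 to 0.488 for differently numbered ones. Within each group of 3 these deviations cancel out, so the correlations depend on each other. They cannot show whether the replicate numbers pair the libraries. With a replicate block 2 member regions were higher and 8 lower, and over all shared regions 2991 and 5660 against 4291 and 5769 without it; Pdcd1lg2 region 7 lost its call (adjusted p = 0.0586). Pileups of 7 to 9 were the lowest called, so lower openings were out of reach.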
